A study of Mus musculus with 13 samples.

Results

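The sarcomere genes described here are 56 mouse genes chosen by name: the isoforms of myosin, actin, troponin, tropomyosin and alpha-actinin, the proteins of the Z-disc, I-band and M-band, and the chaperones, kinases and degradation factors that act on them. Of these, 54 were among the 16382 genes of the deposited tables, and Tnnc1 and Myoz3 were not analysed here. C2C12 is an established mouse myoblast line (labelled genotype WT) whose cells fuse into myotubes when serum is withdrawn. Both groups were C2C12 myotubes on day 8 of differentiation, kept for a further 24 h either with the DMSO vehicle (CON, 6 libraries) or with 10 μM palmitoylethanolamide, a fatty acid amide (PEA, 6 libraries). Each group comes from 3 repeats of the experiment with duplicate wells, and no label ties a library to a repeat. An n of 6 below therefore counts libraries, not independent repeats. All tests treat the 12 libraries as independent, so p-values measure the spread between libraries, which is in part technical, and they may be too small. PEA replicate 2 was sequenced as a run and a top-up run that share 1 set of counts, counted as 1 library, and whether that set holds reads of both runs is not stated.

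The sarcomere is the contractile unit of striated muscle: thick filaments of myosin pull on thin filaments of actin, which are anchored at the Z-disc, while the M-band ties the thick filaments together at their centre. Calcium starts contraction by binding troponin, which moves tropomyosin along the thin filament. Most of these proteins come from small gene families whose members are used at different ages and in different fibre types. Differentiating myotubes make embryonic and perinatal myosins and the cardiac forms of actin and troponin T, and adult fast and slow fibres later rely on their own isoforms.

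PEA libraries held less RNA of both troponin I genes (Tnni1 and Tnni2) and of troponin T genes Tnnt2 and Tnnt3. The same held for the essential myosin light chains Myl1 and Myl4, the developmental alpha-actin Actc1 and the perinatal myosin Myh8. It also held for the Z-disc protein Actn2, the assembly factors Smyd1 and Klhl41, and the predicted kinase Sbk3. Of 53 genes tested, 12 (22.6%) were lower in PEA at an adjusted p below 0.05, and 4.74% of all 13142 genes tested were lower by the same rule. No sarcomere gene was called higher by edgeR, against 6.31% of all genes, and at an unadjusted p below 0.05, 18 were lower and 2 (Xirp2 and Capn3) higher, against 13.1% and 14.3% of all genes. In both directions together 11.0% of all genes were called. DESeq2 called 14 sarcomere genes lower and 0 higher, of which 11 were shared with edgeR. Over the same genes DESeq2 called 7.05% lower. The median log2 fold change was -0.14 over the sarcomere genes and 0.01 over all genes tested, and 40 of the 53 lay below 0. A fold change here is PEA against CON from edgeR's quasi-likelihood fit, with its standard error (SE) and a p-value adjusted by Benjamini-Hochberg over all genes tested.

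The libraries held between 12354845 and 50397444 estimated counts, and CON replicate 1 was the deepest. Levels below are normalized counts, in which each library was scaled by 1 factor. In bulk RNA, fewer myotubes and less RNA per myotube cannot be told apart. CON replicate 3 stood apart for these genes: it was the lowest CON library for 40 of the 53, whereas it was the lowest for 23.6% of all genes. Without it 21 sarcomere genes were called lower, against 3.75% of all genes, and the median log2 fold change was -0.25. The 9 genes gained were Mylpf, Acta1, Tnnc2, Tpm1, Actn3, Tcap, Ldb3, Pdlim3 and Unc45b, with adjusted p-values from 0.0114 to 0.0376. Without PEA replicate 6, 6 were called lower, against 2.16% of all genes, with a median of -0.12. The median came closest to 0 without CON replicate 2, at -0.06, and was -0.09 without CON replicate 1 and without CON replicate 5.

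**Figure D1:**
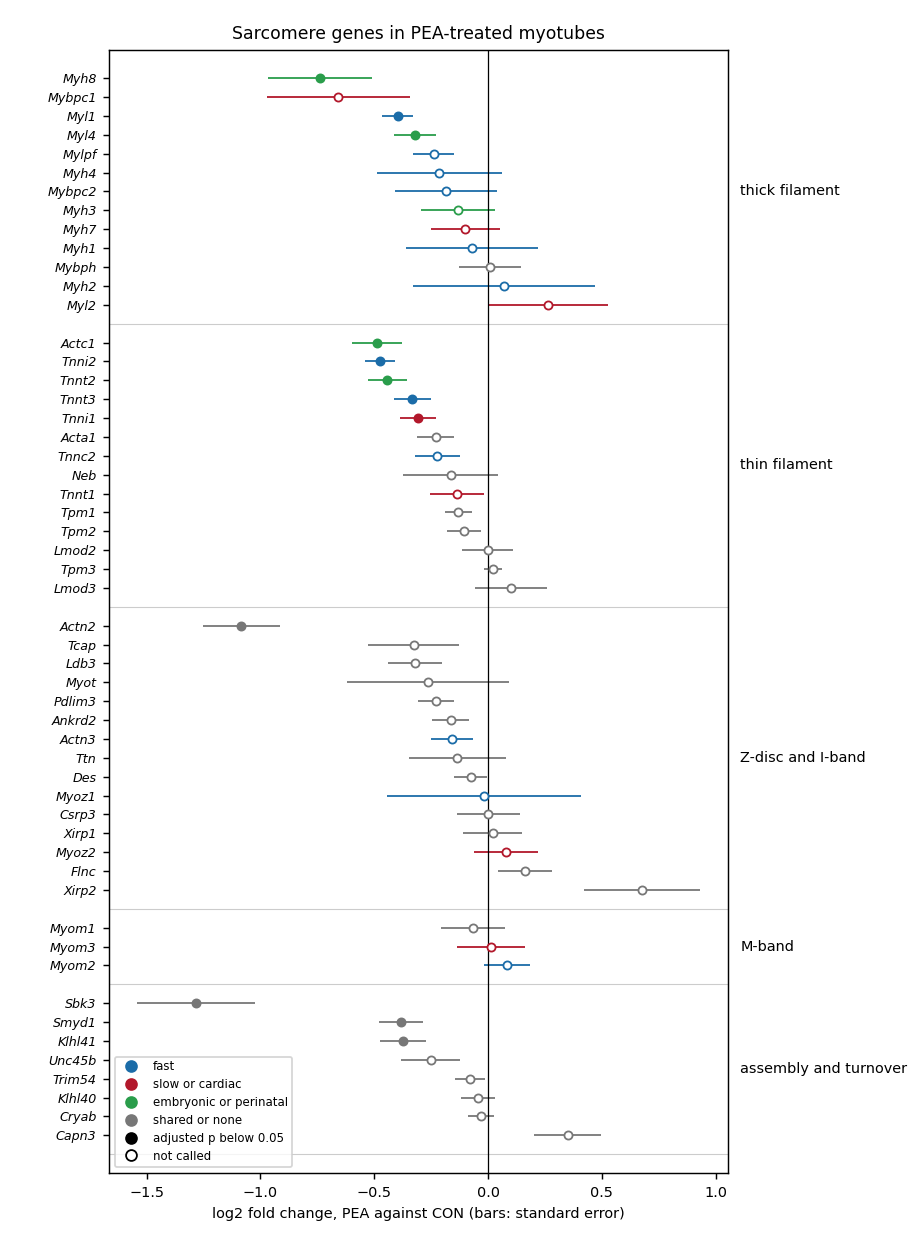
Log2 fold change of each of the 53 sarcomere genes tested (x axis, PEA against CON, bars show the SE), grouped by place in the sarcomere and coloured by isoform class. Filled points passed an adjusted p of 0.05. All 12 filled points lie left of 0, and none of the 3 M-band genes is filled.

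Promoters of 5 of the lower genes are printed because they show the range found, from 3 matches to the muscle regulatory factor motif to none. Each is the 200 bases before the start of the canonical transcript, on the gene's strand of GRCm39, 5′ to 3′. Capitals mark CANNTG, the E-box read by MyoD and myogenin, and the MEF2 motif, both searched on both strands.
Tnni2, chr7:141995345-141995544, plus strand: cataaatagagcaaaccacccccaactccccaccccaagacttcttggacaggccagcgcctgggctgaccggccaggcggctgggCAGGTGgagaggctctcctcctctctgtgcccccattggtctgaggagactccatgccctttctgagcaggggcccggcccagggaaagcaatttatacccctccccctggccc
Tnnt2, chr1:135763538-135763737, plus strand: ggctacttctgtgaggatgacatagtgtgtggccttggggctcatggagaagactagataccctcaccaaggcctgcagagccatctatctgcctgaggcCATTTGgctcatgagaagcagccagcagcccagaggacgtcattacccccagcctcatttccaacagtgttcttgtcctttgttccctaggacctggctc
Actc1, chr2:113884044-113884243, minus strand: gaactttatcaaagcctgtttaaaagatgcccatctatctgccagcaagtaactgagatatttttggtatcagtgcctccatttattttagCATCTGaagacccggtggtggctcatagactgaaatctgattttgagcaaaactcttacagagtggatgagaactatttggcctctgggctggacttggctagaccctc
Klhl41, chr2:69500264-69500463, plus strand: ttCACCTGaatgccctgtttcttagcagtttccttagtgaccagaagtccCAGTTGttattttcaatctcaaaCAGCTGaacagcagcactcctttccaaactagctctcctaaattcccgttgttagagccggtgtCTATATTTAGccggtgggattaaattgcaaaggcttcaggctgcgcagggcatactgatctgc
Sbk3, chr7:4974879-4975078, minus strand: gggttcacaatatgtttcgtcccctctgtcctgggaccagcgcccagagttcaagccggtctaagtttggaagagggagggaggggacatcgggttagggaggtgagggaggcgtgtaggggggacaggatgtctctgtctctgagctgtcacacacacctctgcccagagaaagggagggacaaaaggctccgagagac

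In Klhl41 the E-boxes lie at -198, -150 and -127 from the start and the MEF2 match at -63, whereas Sbk3 held neither motif in this window. CANNTG was present in 9 of the 12 promoters of the lower genes (75.0%) and in 31 of the 41 of the genes not called (75.6%). It was present in 50.8% of all 12143 promoters searched. The MEF2 motif stood in 2 of the 12 (16.7%), in 6 of the 41 (14.6%) and in 1.47% of all promoters. The E-box CAGCTG, a part of the CANNTG matches, stood in 33.3% of the promoters of the lower genes, in 24.4% of those not called and in 9.13% of all promoters. For the E-box CACCTG the shares were 16.7%, 26.8% and 12.8%. Differences between these shares were not tested.

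The troponin genes moved in both troponin I isoforms and in the fast and cardiac forms of troponin T. Troponin I holds the thin filament in its relaxed state, and troponin T fastens the complex to tropomyosin. Tnni2, fast troponin I (chr7:141995545-141998147), ran from 7108 through a median of 8319 to 9266 normalized counts in CON and from 5415 through 5888 to 6615 in PEA. The groups did not overlap, and its level fell by 0.47 on the log2 scale (SE 0.07, adjusted p = 0.000529). Tnnt2, cardiac troponin T (chr1:135763738-135780315), which embryonic skeletal muscle also makes, ran from 21400 through 25660 to 28880 in CON and from 16400 through 18030 to 21020 in PEA. Every PEA library was again below every CON library, and it fell by 0.44 (SE 0.08, adjusted p = 0.00459).

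Tnni1, slow troponin I, had a lowest, median and highest count of 7311, 9091 and 10760 in CON and 6912, 7239 and 8138 in PEA. The groups overlapped, and it fell by 0.31 (SE 0.08, adjusted p = 0.0222). It was not called without CON replicate 5, PEA replicate 5 or PEA replicate 6, where the adjusted p was 0.0534, 0.0561 and 0.0589. Tnnt3, fast troponin T, had 9451, 11620 and 13440 in CON and 8276, 9210 and 9563 in PEA. Its groups overlapped narrowly, it fell by 0.33 (SE 0.08, adjusted p = 0.0184), and without PEA replicate 6 the adjusted p was 0.0514. Tnnt1, slow troponin T, was not called, with 1494, 2337 and 3025 in CON and 1972, 2087 and 2246 in PEA (-0.14, SE 0.12, adjusted p = 0.492). Tnnc2, the calcium-binding subunit of fast muscle, had medians of 4804 and 3945 and was not called (-0.22, adjusted p = 0.151). The 4 lower troponin genes stand in pairs: Tnni2 and Tnnt3 are 50457 bases apart on chromosome 7, and Tnni1 and Tnnt2 are 25010 bases apart on chromosome 1.

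Of the alpha-actins, which build the thin filament, the developmental form fell. Actc1, the actin of heart and embryonic muscle (chr2:113876266-113884043), ran from 3006 through 3459 to 4500 normalized counts in CON and from 2069 through 2410 to 3214 in PEA. In 5 of 6 PEA libraries it was below the lowest CON library, and it fell by 0.49 (SE 0.11, adjusted p = 0.0112). Acta1, adult skeletal actin, ran from 46800 through 56920 to 65600 in CON and from 41250 through 48410 to 53990 in PEA, and did not pass in edgeR (-0.23, SE 0.08, adjusted p = 0.0756). DESeq2 called it, with an adjusted p of 0.0301. Per kilobase of transcript, Acta1 made up 97.2% ± 0.209 of the pair in CON and 97.7% ± 0.244 in PEA (SD, n = 6).

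The remaining thin filament genes were not called. Tropomyosin covers the myosin-binding sites of actin, and log2 fold changes were -0.13 for Tpm1, -0.11 for Tpm2 and 0.02 for Tpm3. Tpm3 shares 59.25% of its 50-base words with its related sequence Tpm3-rs7, so their reads could have been split. Neb, the giant protein that runs along the thin filament, gave -0.16 (SE 0.21). Lmod2 and Lmod3, which start and lengthen thin filaments, gave -0.00 and 0.10, with adjusted p-values of 0.999 and 0.725.

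Among thick filament genes, the essential light chains Myl1 and Myl4 and 1 of 6 myosin heavy chains fell. That made 3 of 13 thick filament genes (23.1%), against 4.74% of all genes. Myl1 alone was called without CON replicates 1 or 5 or PEA replicates 2, 4, 5 or 6. Myl1, the light chain of fast fibres (chr1:66963454-66984642), ran from 13950 through 15800 to 18340 normalized counts in CON and from 10840 through 12060 to 13100 in PEA. The groups did not overlap, and it fell by 0.40 (SE 0.07, adjusted p = 0.00235). It shares 21.36% of its 50-base words with a pseudogene. Myl4, the embryonic and atrial light chain, ran from 8972 through 11280 to 14080 in CON and from 8564 through 9139 to 9938 in PEA, with overlap, and fell by 0.32 (SE 0.09, adjusted p = 0.0351). It was not called without CON replicate 1 (adjusted p = 0.0606), CON replicate 5 (0.0804), PEA replicate 2 (0.0605), PEA replicate 4 (0.0760), PEA replicate 5 (0.0801) or PEA replicate 6 (0.0767).

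Regulatory light chains, which tune the myosin head by phosphorylation, were not called. Mylpf, the fast form, ran from 22420 through 29290 to 35720 in CON and from 23450 through 24360 to 27240 in PEA (-0.24, SE 0.09, adjusted p = 0.0928), and DESeq2 called it with an adjusted p of 0.0419. Myl2, the slow and ventricular form, ran from 28.5 through 56.0 to 102.0 in CON and from 41.0 through 74.0 to 91.5 in PEA (0.26, SE 0.26, adjusted p = 0.563). Myl3, the slow essential chain, did not pass the filter on low counts: it was at 0 in all CON libraries and reached 3.15 and 24.3 normalized counts in 2 PEA libraries.

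Myosin heavy chains carry the motor, and Myh3, the embryonic form, was the most abundant in both groups. It ran from 6584 through 13500 to 16170 normalized counts in CON and from 10230 through 11300 to 12510 in PEA, so the PEA range lay inside that of CON (-0.13, SE 0.16, adjusted p = 0.649). Per kilobase it made up 79.8% ± 3.44 of sarcomeric heavy chain RNA in CON and 79.0% ± 2.09 in PEA (SD, n = 6). Myh1, the adult fast IIx form, came next at 15.2% ± 3.91 and 16.9% ± 1.55. The other 4 heavy chains each took under 3% in the means of both groups.

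Myh8, the perinatal heavy chain (chr11:67167746-67199462), ran from 171.0 through 324.8 to 440.4 in CON and from 114.3 through 194.7 to 281.8 in PEA. In 3 PEA libraries it was below the lowest CON library, the ranges overlapped, and it fell by 0.74 (SE 0.23, adjusted p = 0.0474). DESeq2 did not call it (adjusted p = 0.0620). It shares 21.41% of its 50-base words with other transcripts, chiefly Myh2, so its count is uncertain. Leaving out 1 library lost its call in 8 of 12 fits: without CON replicates 1, 5 and 6 the adjusted p was 0.106, 0.0979 and 0.0830, and without PEA replicates 1, 2, 4, 5 and 6 it was 0.0568, 0.0998, 0.0966, 0.0507 and 0.1085.

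Myh1 ran from 934.5 through 3286 to 4969 in CON and from 2287 through 2998 to 3622 in PEA (-0.07, SE 0.29, adjusted p = 0.906). Myh4, the fast IIb form, ran from 84.0 through 165.4 to 245.6 and from 80.0 through 132.8 to 223.3 (-0.21, SE 0.27, adjusted p = 0.661). Myh7, the slow and cardiac form, ran from 176.8 through 253.4 to 348.8 and from 184.3 through 233.4 to 277.0 (-0.10, SE 0.15, adjusted p = 0.720). Each of these 3 overlapped widely between the groups. Myh2, the fast IIa form, was the lowest of the 6, with medians of 23.5 and 37.8 (0.07, SE 0.40). Of the 6 heavy chain genes 5 lie on chromosome 11, and Myh1, Myh2, Myh4 and Myh8 share between 19.1% and 24.05% of their 50-base words with other transcripts. Myh7, on another chromosome, shares 22.56% with the cardiac heavy chain Myh6, so the counts of these 5 genes are uncertain.

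Myosin-binding proteins of the thick filament were not called. Mybph, myosin-binding protein H, ran from 10350 through 17050 to 22600 in CON and from 15560 through 16830 to 17840 in PEA (0.01, SE 0.13, adjusted p = 0.976). Mybpc2, the fast form of myosin-binding protein C, had medians of 68.1 and 60.0 over ranges of 40.1 to 102.6 and 49.7 to 83.0 (-0.18, SE 0.22, adjusted p = 0.641). Mybpc1, the slow form, had medians of 19.2 and 13.5 over ranges of 17.3 to 33.9 and 7.07 to 22.6 (-0.66, SE 0.31, adjusted p = 0.184), and 4 PEA libraries were below every CON library.

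**Figure D2:**
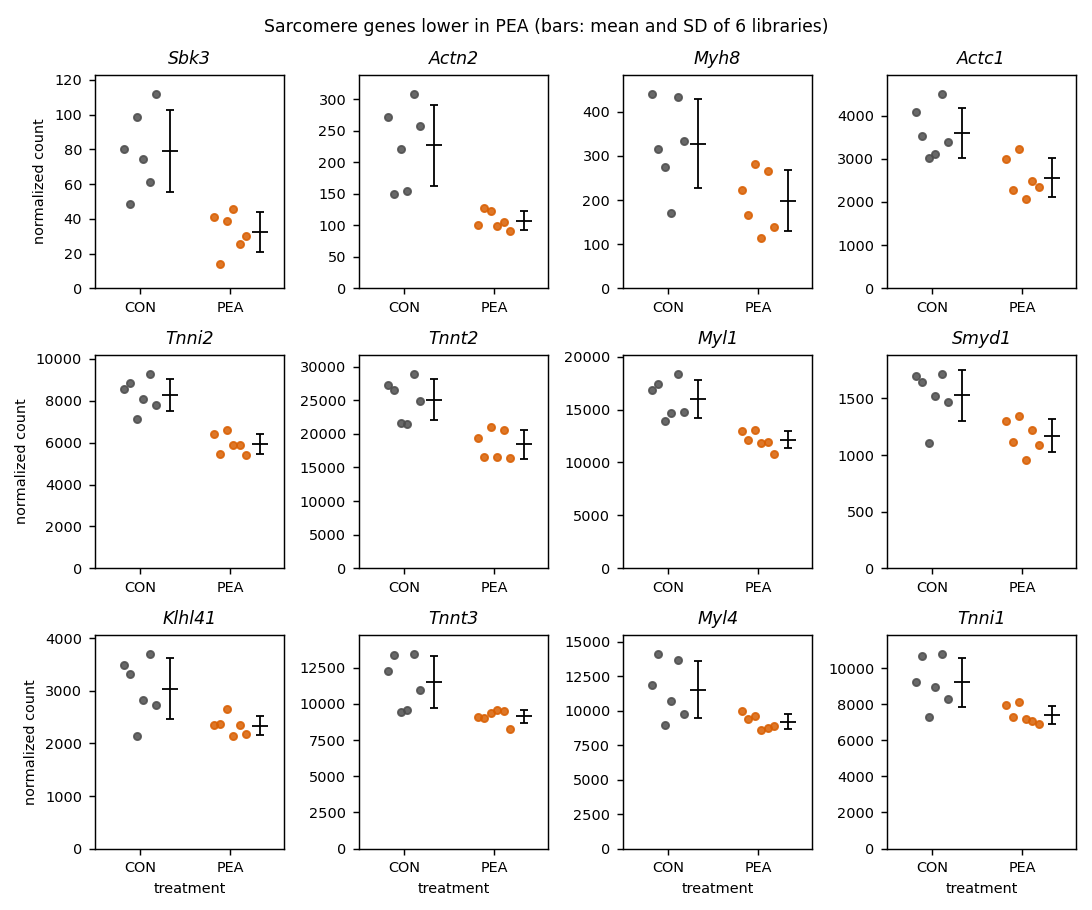
Normalized counts (y axis) of the 12 sarcomere genes called lower in PEA, with 1 point for each of 6 CON and 6 PEA libraries and the mean and SD beside them. The groups do not overlap for Sbk3, Actn2, Tnni2, Tnnt2 and Myl1.

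At the Z-disc and I-band, 1 of 15 genes tested fell (6.67%), near the 4.74% of all genes. Without CON replicate 3, 5 were called lower, against 3.75% of all genes. Without CON replicate 6, 2 were called lower, against 2.48% of all genes. Actn2, the alpha-actinin that cross-links thin filaments in all fibres (chr13:12281303-12356693), ran from 150.3 through 239.2 to 308.2 in CON and from 90.2 through 102.4 to 127.4 in PEA. No libraries overlapped, and its level fell by 1.08 on the log2 scale (SE 0.17, adjusted p = 0.00125). Actn3, the alpha-actinin of fast fibres, was far more abundant, with 6306, 9138 and 10860 in CON and 7456, 7955 and 8658 in PEA (-0.16, SE 0.09, adjusted p = 0.291).

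The other Z-disc genes were mixed in sign. Myoz2, the slow calsarcin, which binds calcineurin, ran from 720.9 through 997.3 to 1480 and from 966.4 through 1075 to 1156 (0.08, SE 0.14, adjusted p = 0.757). Myoz1, the fast calsarcin, ran from 7.20 through 18.5 to 39.7 and from 7.14 through 20.2 to 32.0 (-0.02, SE 0.43, adjusted p = 0.983). Log2 fold changes below 0 that were not called were -0.33 for Tcap, the titin cap, -0.32 for Ldb3, a PDZ-LIM protein, -0.27 for Myot, -0.23 for Pdlim3, -0.16 for Ankrd2, -0.13 for Ttn, the giant spring of the sarcomere, and -0.08 for Des, the muscle intermediate filament. DESeq2 called Pdlim3, with an adjusted p of 0.0332, and without CON replicate 6 edgeR called Ankrd2 (-0.23, adjusted p = 0.0494). Csrp3 gave 0.00, Xirp1 0.02 and Flnc, the muscle filamin, 0.16. Xirp2, an actin-binding repeat protein, ran from 112.1 through 319.3 to 532.3 in CON and from 365.5 through 506.9 to 595.4 in PEA (0.68, SE 0.26, adjusted p = 0.0948). Without CON replicate 2 it was higher, at 0.90 with an adjusted p of 0.0131.

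No M-band gene was called. Myom2, the myomesin of fast fibres, ran from 7179 through 10700 to 12250 in CON and from 9925 through 10650 to 11780 in PEA (0.08, SE 0.10, adjusted p = 0.639). Myom3, the slow myomesin, ran from 790.9 through 1418 to 1667 and from 1185 through 1300 to 1514 (0.01, SE 0.15, adjusted p = 0.967), and Myom1 gave -0.07. Per kilobase Myom2 made up 85.2% ± 1.30 of the 3 in CON and 85.8% ± 0.613 in PEA (SD, n = 6). The PEA range of Myom2 and of Myom3 lay within that of CON.

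Of 8 assembly and turnover genes, 3 fell (37.5%, against 4.74% of all genes), and Sbk3 alone was called without PEA replicate 6. Sbk3, a predicted kinase expressed in striated muscle (chr7:4968259-4974878), ran from 48.3 through 77.1 to 111.8 in CON and from 13.9 through 34.6 to 45.4 in PEA. The groups did not overlap, and it fell by 1.28 (SE 0.26, adjusted p = 0.00630), at the lowest level of the 12 genes called. Smyd1, a methyltransferase needed to build the thick filament (chr6:71190923-71299217), had 1111, 1588 and 1715 in CON and 955.8, 1170 and 1343 in PEA. It fell by 0.38 (SE 0.10, adjusted p = 0.0207), with overlap between the groups, and without PEA replicate 6 the adjusted p was 0.0542.

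Klhl41, a kelch protein that stabilises thin filament proteins, had 2138, 3084 and 3700 in CON and 2150, 2359 and 2648 in PEA. Its lowest library of all was in CON, and it fell by 0.37 (SE 0.10, adjusted p = 0.0273). The call was lost without CON replicate 1 (adjusted p = 0.0595), CON replicate 5 (0.0638), PEA replicate 2 (0.0523), PEA replicate 4 (0.0620), PEA replicate 5 (0.0561) or PEA replicate 6 (0.0663). Its relative Klhl40 gave -0.04, the myosin chaperone Unc45b -0.25, the small heat shock protein Cryab -0.03 and the ubiquitin ligase Trim54 -0.08, none of them called. Capn3, the muscle calpain, had medians of 105.3 and 133.6 (0.35, SE 0.15, adjusted p = 0.132), and without CON replicate 2 it was higher, at 0.46 with an adjusted p of 0.0338. It shares 32.76% of its 50-base words with other transcripts, so its count is uncertain.

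The normalized counts of the groups did not overlap for 5 sarcomere genes, Tnni2, Tnnt2, Myl1, Actn2 and Sbk3, all lower in PEA. That was so for 4.34% of all genes in either direction and for 1.81% with PEA lower. These 5 and Actc1 were called in all 12 fits that left out 1 library, with adjusted p-values of at most 0.0329.

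By isoform class, 4 of 5 embryonic or perinatal genes fell, with a median log2 fold change of -0.44, and the exception was Myh3. Of 12 fast isoforms 3 fell (Tnni2, Tnnt3 and Myl1), with a median of -0.20. Of 7 slow or cardiac isoforms 1 fell (Tnni1, 14.3%), with a median of -0.10, and of 0.0054 without CON replicate 5. Tnnt2, Actc1 and Myl4, which are also forms of the heart, were placed in the embryonic or perinatal class alone. The contrast between these 2 classes rests on that placement. Of the 29 genes without such a class 4 fell (13.8%), with a median of -0.11. Of all genes tested, 4.74% were lower. By place, the medians were -0.18 for 13 thick filament genes, -0.19 for 14 thin filament genes, -0.13 for 15 Z-disc and I-band genes, 0.01 for 3 M-band genes and -0.17 for 8 assembly and turnover genes. Differences between these classes were not tested, and the counts and medians moved with single libraries. Leaving out 1 library put the median between -0.27 and -0.06 for thick filament genes and between -0.19 and -0.02 at the Z-disc and I-band. For the M-band genes it lay between -0.10 and 0.09. Of the embryonic or perinatal genes 2 were called without CON replicates 1 or 5 or PEA replicates 2, 4, 5 or 6, when Myh8 and Myl4 were lost. Of the fast isoforms 6 were called without CON replicate 3, with Mylpf, Tnnc2 and Actn3 added. Of the slow or cardiac isoforms 0 were called without CON replicate 5 or PEA replicates 5 or 6. Of the genes without a class 10 were called lower without CON replicate 3 and 2 without PEA replicate 6. Of the thin filament genes 5 fell, and 8 were called without CON replicate 3 and 3 without PEA replicate 6.

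**Figure D3:**
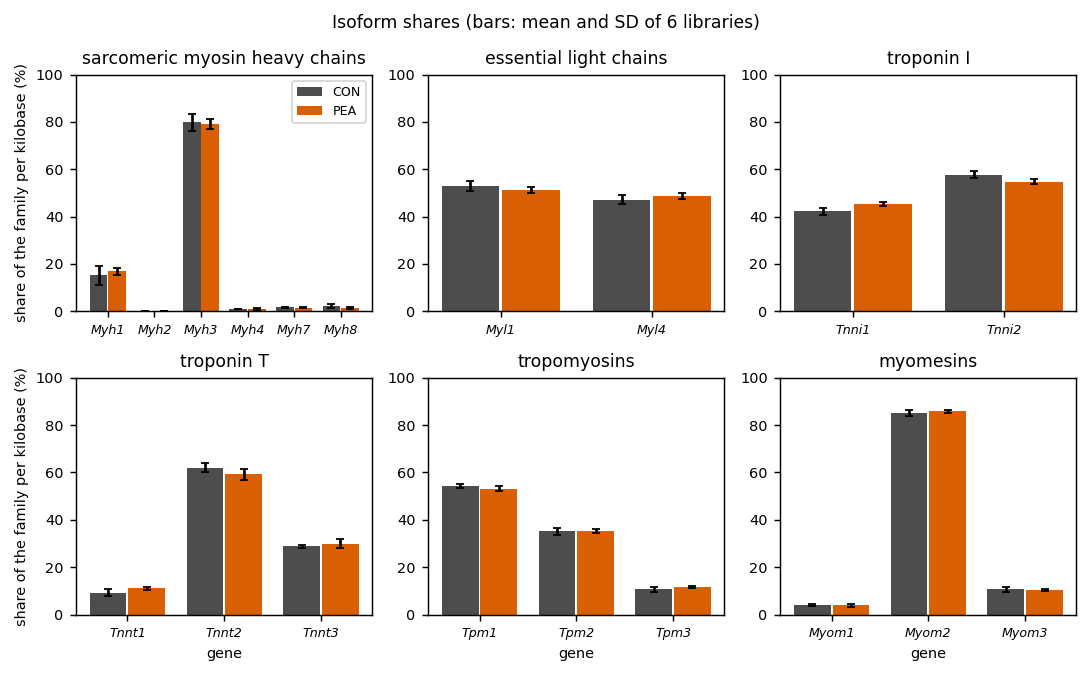
Share of each isoform in the RNA of its family per kilobase of canonical transcript (y axis, percent, bars give the mean and SD of 6 libraries) for 6 families in CON and PEA. Myh3 takes 79.8% and 79.0% of heavy chain RNA, and Tnni2 57.7% and 54.7% of troponin I.

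Ratios of isoforms were taken within each library, where the scaling of the library cancels but for the 0.5 added to each count, which weighs on low genes such as Myoz1 and Mybpc1. Of 16 listed pairs, 14 could be tested. With 6 libraries a side, the two-sided exact permutation test can go no lower than p = 0.00216, and p-values were adjusted over the 14 pairs. Of these, 2 differed between the groups, and in no pair were the groups without overlap. The ratio of fast Tnni2 to slow Tnni1 had a lowest, median and highest value of 0.830, 0.915 and 0.972 in CON and 0.748, 0.810 and 0.836 in PEA (exact permutation p = 0.00433, adjusted p = 0.0303). Its mean was lower in PEA by a log2 difference of -0.17. Per kilobase, Tnni2 made up 57.7% ± 1.43 of the pair in CON and 54.7% ± 0.981 in PEA (SD, n = 6).

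The ratio of Actn3 to Actn2 was 28.5, 35.3 and 65.5 in CON and 62.8, 77.0 and 85.5 in PEA (log2 difference 0.89, exact permutation p = 0.00433, adjusted p = 0.0303). Actn2 was the member of the pair whose own level passed the test. Both ratios missed the threshold without PEA replicates 1, 2, 4, 5 or 6, where the adjusted p of either ran from 0.0606 to 0.0909 (exact permutation).

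The other ratios did not pass. Acta1 to Actc1 was 15.8 in the median CON library and 19.7 in the median PEA library (log2 difference 0.27, exact permutation p = 0.0152, adjusted p = 0.0707). It passed without CON replicate 2 (exact permutation, adjusted p = 0.0404) and without PEA replicate 3 (0.0303). Myh8 to Myh3 was 0.0278 and 0.0174 (-0.67, exact permutation p = 0.0476, adjusted p = 0.133). Tnnt3 to Tnnt1 was 4.99 and 4.29 (-0.22, exact permutation p = 0.0346, adjusted p = 0.121), and it passed without CON replicate 4 (adjusted p = 0.0404). For the other 9 pairs the adjusted p was between 0.202 and 0.965 (exact permutation), and the log2 differences ran from -0.55 for Mylpf to Myl2 to 0.59 for Mybpc2 to Mybpc1. Between these lay Myh1 to Myh3 at 0.21, Tnnt3 to Tnnt2 at 0.12, Myom2 to Myom3 at 0.04, Myh7 to Myh3 at -0.00, Myl1 to Myl4 at -0.09, Myh4 to Myh7 at -0.10 and Myoz1 to Myoz2 at -0.20.

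**Figure D4:**
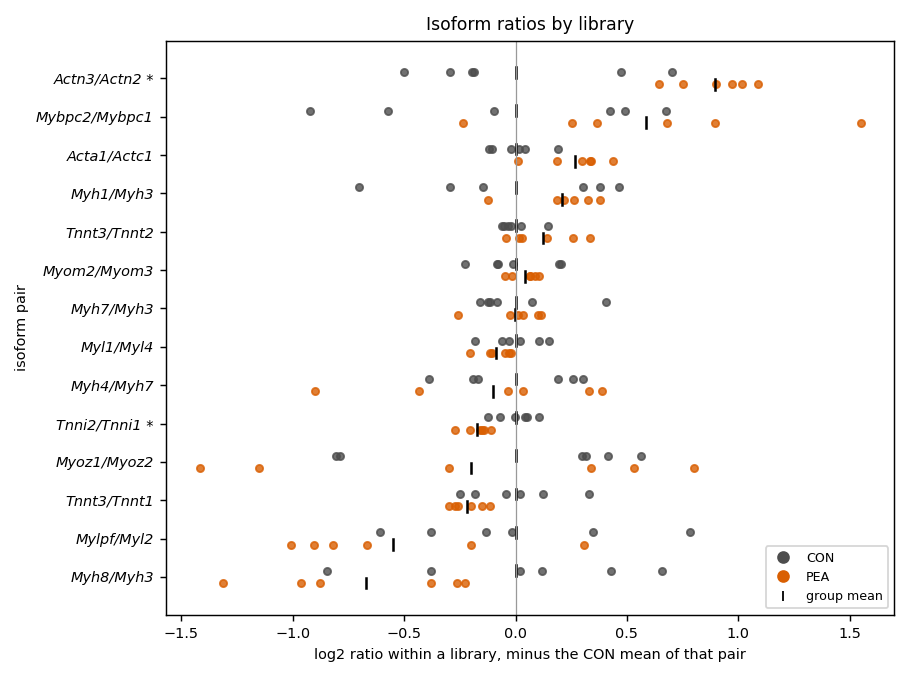
Log2 ratio of 2 isoforms in each library minus the CON mean of that pair (x axis) for 14 pairs, with CON and PEA libraries as points and group means as ticks. An asterisk marks the 2 pairs with an adjusted p below 0.05, Actn3 to Actn2 to the right of CON and Tnni2 to Tnni1 to the left.

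CON libraries varied more than PEA libraries in most sarcomere genes. The SD on the log2 CPM scale was larger in CON for 47 of 53 genes (88.7%), and for 65.3% of all genes. Its median over the sarcomere genes was 0.346 in CON and 0.132 in PEA, against 0.147 and 0.119 over all genes. The mean log2 CPM of the sarcomere genes, centred per gene, ran from -0.38 in CON replicate 3 to 0.36 in CON replicate 2. Over the PEA libraries it ran from -0.19 to 0.03. The sarcomere genes together took between 1.55% and 2.31% of the estimated counts in CON and between 1.70% and 1.85% in PEA.

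**Figure D5:**
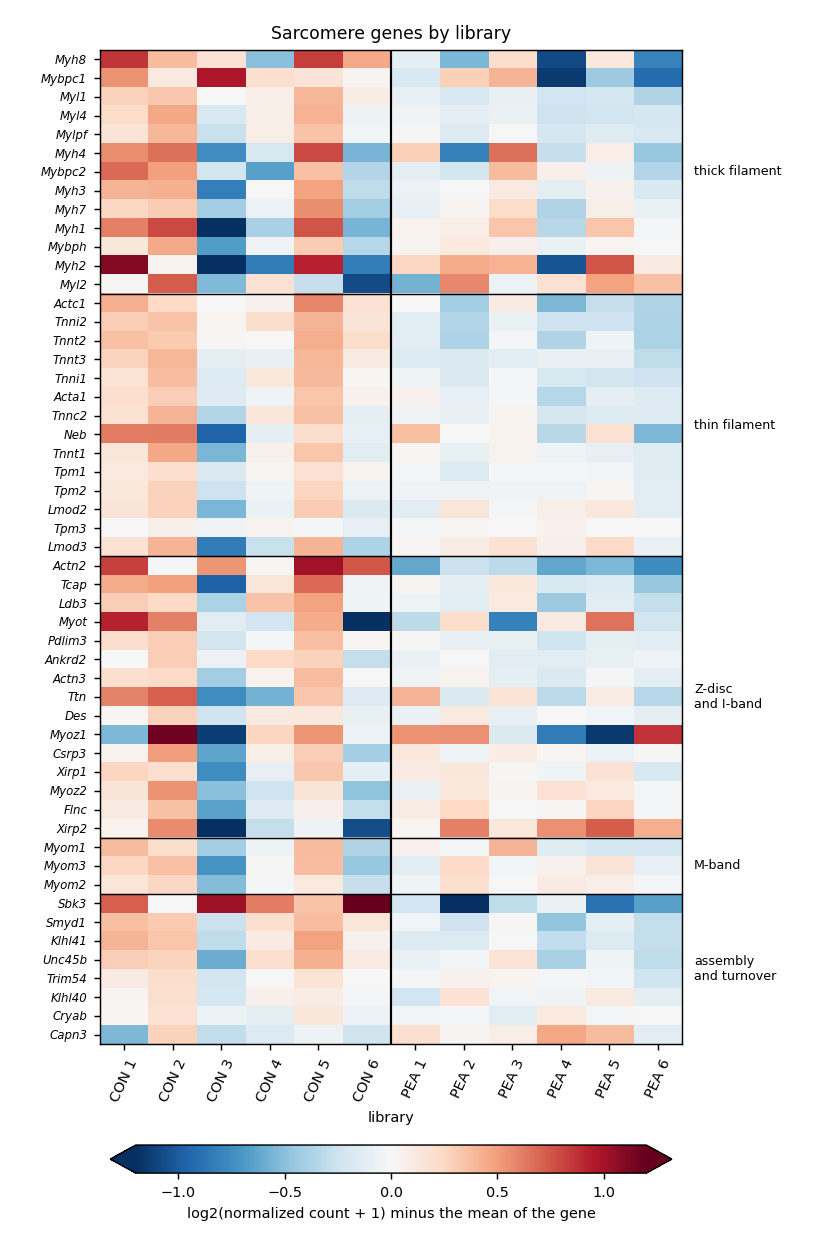
Log2(normalized count + 1) of 53 sarcomere genes in each library (columns) minus the mean of the gene, by place in the sarcomere. Colours end at the limits of the bar. CON 3 is blue for most genes, CON 2 and CON 5 are red, and the PEA columns are paler.

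Across the 53 genes, log2 fold change and the length of the canonical transcript had a Spearman rho of 0.248, and 0.194 over 13131 genes with a length. All of these points come from the same 12 libraries.

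Of 41 sarcomere genes tested outside the 56, 6 were lower (14.6%) and 2 higher (4.88%) in PEA, with a median of -0.04. Of all genes, 4.74% were lower and 6.31% higher. Leaving out 1 library put the median between -0.07 and 0.01. Without CON replicate 2, 7 were lower and 4 higher, and without PEA replicate 6, 4 were lower and none higher. The difference from the 53 was not tested. The smallest p-values were those of Tmod1, which caps the pointed end of the thin filament (-0.61, SE 0.08, adjusted p = 0.000467), and Cfl2, which severs actin filaments (-0.21, SE 0.04, adjusted p = 0.00786).

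Some markers of other cell states also differed between the groups, and their part in the result was not tested. Of all genes tested, 4.74% were lower and 6.31% higher. Of 20 markers of dividing cells, 18 were higher in PEA and none lower, with a median of 0.65, and the smallest p-values were those of Rrm2 (0.51) and Mcm6 (0.43). Their summed normalized counts ran from 14850 to 21490 in CON and from 23090 to 26730 in PEA, without overlap. Of 24 other myotube markers, 6 were lower and none higher, among them Chrng, the fetal acetylcholine receptor subunit (-0.40), and myoglobin, Mb (-0.87). Of the 24, 4 lay above 0, none of them called, with Dmd the highest (0.85). Without CON replicate 2, 2 were called higher. The sums were 67280 to 104300 in CON and 71360 to 84800 in PEA. Of 18 myoblast and reserve cell markers, 3 were lower (Id3 -0.40) and 1 higher (Cd34 0.24), with sums of 38660 to 46380 and 39760 to 44040. Of 7 fibroblast markers, 2 were higher (Dcn 0.48 and Col1a2 0.28), with sums of 69770 to 91920 and 72990 to 84560. Of the 7, 2 lay below 0, the lowest at -0.77, and neither was called. Of 22 non-muscle cytoskeleton genes, 3 were lower and none higher, among them Myl9 (-0.28) and Cnn2 (-0.25), with sums of 311700 to 358500 and 305100 to 333400. Without CON replicate 2, 5 of these 22 were lower and 3 higher. Leaving out 1 library put the lower calls between 2 (without PEA replicate 6) and 11 (without CON replicate 3) for the myotube markers, and the higher calls between 14 (without PEA replicate 6) and 20 (without CON replicate 3) for the markers of dividing cells. For the fibroblast markers the higher calls ran from 0, without CON replicates 1, 5 or 6 or PEA replicates 2 to 6, to 3 without CON replicate 2.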

How the data were processed

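RNA was enriched for poly-A and sequenced. The authors aligned reads with STAR 4.4.1d to mm39 and quantified genes in Partek, and they deposited estimated counts per gene without normalization. The second deposited table is a signal on a linear scale, made by DESeq2 median-ratio scaling of the first and called normalized counts here. Strand use in counting is not given in the sources used here. Tables were joined to GENCODE symbols and positions for GRCm39.

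Estimated counts were rounded and tested in edgeR 4.0.16 (R 4.3.3; TMM scaling, filterByExpr, quasi-likelihood test, 10 residual degrees of freedom, no covariates, adjusted p below 0.05 over 13142 genes). Isoform ratios used normalized counts with 0.5 added and a two-sided exact permutation test over 924 assignments. DESeq2 1.42.0, limma 3.58.1 and leaving out each library were alternatives. The fits were tested on simulated data. Depth was 12354845 to 50397444 estimated counts per library, and intervals from counting were not computed. Words of 50 bases were compared between annotated transcripts.

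The genes, lists and isoform pairs were chosen with earlier results of these data known. Every gene called, in a tested pair or without overlap is given in full, others by value or range, and in each list the 2 genes of smallest p. No label pairs same-numbered CON and PEA libraries. The correlations of their deviations ran from -0.083 to 0.065, which cannot decide whether they share a repeat.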

Additional observations from a re-analysis of the deposited data

Results flagged for a closer look

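In 134 groups of 6 libraries examined, 2 had a library far from the others by Dixon's criterion, and chance marks about 1 group in 20. For Trim54, PEA replicate 6 was the lowest at 1475 normalized counts, with a gap to the next library of 0.671 of the range. For the log2 ratio of Myh7 to Myh3, PEA replicate 4 was the lowest at -5.87, with a gap of 0.635 of the range. Neither was called.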

How the results depend on the processing

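Leaving out 1 library moved the number of genes called from 1452 to between 778 (without PEA replicate 6) and 2203 (without CON replicate 2), the sarcomere genes called lower to between 6 and 21, those called higher to between 0 and 2, the other sarcomere genes called to between 4 and 11, and the isoform ratios that differed to between 0 and 3. At an adjusted p below 0.01, 405 genes and 5 sarcomere genes were called. No ratio (0) differed between group medians. With the replicate number as a block, 15 sarcomere genes were called, 12 of them shared, and 1 was higher (Xirp2). The block changed no other call of a sarcomere gene beside those of Acta1 and Pdlim3. With it 0 ratios differed, where the exact permutation within numbers can go no lower than p = 0.03125. Tnni2 to Tnni1 and Actn3 to Actn2 both stood at that floor, with an adjusted p of 0.109, so the block cannot decide whether they differ. The 12 sarcomere genes reported as lower were all called in limma-voom, with median-of-ratios factors, without a filter and with at least 10 counts in every library, and 11 of them were called by limma on the normalized counts. The cause of these shifts was not tested.

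Some genes that were not called turned sign. Lmod2 was 0.0026 with at least 10 counts in every library, 0.0215 with the normalized counts in limma, 0.0265 in limma-voom, 0.0003 without a filter and 0.0199 with the block. In the same order of limma, limma-voom and block, Myh1 was 0.14, 0.15 and 0.10. Myoz1 was 0.0795 in limma-voom and 0.0035 with the block. Csrp3 was -0.0058 in DESeq2 and -0.0035 with median-of-ratios factors, and the ratio of Myh7 to Myh3 was 0.12 between medians. Leaving out 1 library gave ranges of -0.26 to 0.10 for Myh1, -0.11 to 0.47 for Myh2, -0.18 to 0.0054 for Myh7, -0.10 to 0.11 for Mybph, -0.091 to 0.0623 for Lmod2, -0.0189 to 0.20 for Lmod3, -0.25 to 0.31 for Myoz1, -0.0019 to 0.22 for Myoz2, -0.10 to 0.12 for Csrp3, -0.45 to 0.0097 for Myot, -0.0925 to 0.0891 for Xirp1, -0.26 to 0.0173 for Ttn, -0.16 to 0.0175 for Myom1, -0.10 to 0.0881 for Myom3, -0.0572 to 0.006 for Cryab, -0.40 to 0.0443 for the ratio Myoz1 to Myoz2, -0.0028 to 0.0837 for the ratio Myom2 to Myom3, -0.20 to 0.0559 for the ratio Myh4 to Myh7 and -0.036 to 0.077 for the ratio Myh7 to Myh3.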
